A study of Homo sapiens with 12 samples.

Results

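The proteasome genes of the HCC827 lung adenocarcinoma line were examined as a module of 43 transcripts. They were chosen by symbol, as the genes beginning with PSMA, PSMB, PSMC, PSMD, PSME, PSMF or PSMG that are not pseudogenes and have a probe detected (detection p under 0.01) on at least 3 of 12 arrays. Of 48 such symbols with a probe, 43 met the rule, out of 11808 genes tested in all, and the tested probe of each of the 43 was detected on all 12 arrays. The 5 others were PSMD6-AS2, an antisense RNA detected on 1 array, and PSMA8 (a testis subunit), PSMB11 (a thymus subunit), PSMF1 (an inhibitor) and the antisense RNA PSMG3-AS1, each detected on 0 arrays. PSMA7, PSMC5, PSMD7 and PSMD13 were not analysed here. PSMC3IP and PSME3IP1 match the prefixes but encode no subunit, so that 41 of the 43 are subunits, activators or assembly chaperones.

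HCC827 is an epithelial tumour line driven by mutant EGFR. The labels give HCC827-Del as the line with an EGFR deletion alone and HCC827-Del-TM as a line that has, on top of it, a second EGFR mutation, a substitution. Cultures received DMSO alone as the control, or decitabine (2.5 µM), an inhibitor of DNA methyltransferases, together with vorinostat (1 µM), an inhibitor of histone deacetylases, and were taken at 72 h. The 4 groups held 3 biological replicates each, and no group received a single drug. Each genotype is represented by 1 line, so a difference between the lines cannot be told apart from other differences between these cultures.

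The proteasome degrades proteins that carry ubiquitin chains. Its 20S core is a barrel of outer alpha rings and inner beta rings, in which PSMB5, PSMB6 and PSMB7 hold the chymotrypsin-like, caspase-like and trypsin-like active sites. The 19S cap recognises, unfolds and admits substrates. In cells exposed to interferon gamma, PSMB8, PSMB9 and PSMB10 replace PSMB5, PSMB6 and PSMB7 in new particles, the immunoproteasomes, and the PA28 activator made of PSME1 and PSME2 joins them; these forms favour peptides that MHC class I molecules present.

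Replicate arrays correlated at r = 0.995 to 0.996 across genes, and arrays of different groups at 0.931 to 0.972. All 8 lung epithelial markers were detected in every group, with summed intensities of 31293 to 33140 in control HCC827-Del, 26231 to 27225 after treatment, 28080 to 28811 in control HCC827-Del-TM and 32370 to 33563 after treatment. EGFR, on its brightest probe, gave log2 differences after treatment of -0.0096 in HCC827-Del (adjusted p = 0.914) and 0.09 in HCC827-Del-TM (adjusted p = 0.27). Dimmer kept probes of EGFR differed from it and were not tested singly. The next brightest read 9.9, 10.3 and 10.2 in control and 10.3, 10.6 and 10.4 in treated HCC827-Del. Its HCC827-Del-TM values were 10.7, 10.8 and 10.7 in control and 10.5, 10.7 and 10.6 after treatment. A dim one read 5.73, 5.21 and 5.60 in control and 5.88, 5.86 and 5.94 in treated HCC827-Del. In HCC827-Del-TM it read 6.16, 5.68 and 5.82 in control and 5.62, 5.55 and 5.53 after treatment. Another was detected only on the 3 arrays of treated HCC827-Del. Of 11 blood cell markers with a probe, 3 to 4 were detected on all arrays of each group. PTPRC, the pan-leukocyte marker, and CD3E, MS4A1, NKG7 and HBB were undetected on every array. The summed intensity of those 11 was 1720 to 1803 in control HCC827-Del and 2081 to 2240 after treatment, 1924 to 2078 in control HCC827-Del-TM and 2501 to 2683 after treatment. Of 6 stromal and endothelial markers, 1 was detected on all arrays of each group except treated HCC827-Del, where 3 were. The part of these marker levels in the results was not tested.

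The 250 bases upstream of the annotated start are printed for 6 genes on which the results turn. PSMB9, PSMB10, PSME1 and PSME2 are interferon-responsive genes, of which PSMB9 (brightest probe) rose and the other 3 fell in HCC827-Del. PSMD12 and PSMG1 stand for the 19S cap and the assembly chaperones. The windows come from RefSeq on GRCh38.p14 and are written 5′ to 3′ in the direction of transcription. They lie at chr6:32853942-32854191 (plus strand), chr16:67936851-67937100 (minus strand), chr14:24135944-24136193 (plus strand), chr14:24146611-24146860 (minus strand), chr17:67366578-67366827 (minus strand) and chr21:39183452-39183701 (minus strand). In the first 4, capitals mark a pair of GAAA half-sites with any 2 bases between them, a core of interferon-stimulated response elements, and CCAAT, a box bound by NF-Y. In the last 2, capitals mark CGGAAG, an ETS-type site that reads CTTCCG from the other strand, and TGANNNNGC. The latter is a loose pattern like the core of the antioxidant response element, and 35.2% of windows of all genes held it. Sites of other motifs are left in lower case.
PSMB9: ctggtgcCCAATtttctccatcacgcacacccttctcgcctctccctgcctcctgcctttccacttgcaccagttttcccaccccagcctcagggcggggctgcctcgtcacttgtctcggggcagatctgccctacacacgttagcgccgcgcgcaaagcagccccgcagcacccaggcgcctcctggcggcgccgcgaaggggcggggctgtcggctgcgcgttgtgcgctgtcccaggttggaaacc
PSMB10: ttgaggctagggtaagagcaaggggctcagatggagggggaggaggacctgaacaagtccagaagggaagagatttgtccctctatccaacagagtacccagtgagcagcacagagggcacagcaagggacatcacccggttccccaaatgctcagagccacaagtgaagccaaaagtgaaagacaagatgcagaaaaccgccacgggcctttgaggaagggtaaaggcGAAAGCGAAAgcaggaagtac
PSME1: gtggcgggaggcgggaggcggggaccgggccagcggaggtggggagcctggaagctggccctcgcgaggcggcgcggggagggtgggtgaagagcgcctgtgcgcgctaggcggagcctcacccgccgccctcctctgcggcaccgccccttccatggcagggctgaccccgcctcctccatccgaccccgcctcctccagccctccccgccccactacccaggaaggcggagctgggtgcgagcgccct
PSME2: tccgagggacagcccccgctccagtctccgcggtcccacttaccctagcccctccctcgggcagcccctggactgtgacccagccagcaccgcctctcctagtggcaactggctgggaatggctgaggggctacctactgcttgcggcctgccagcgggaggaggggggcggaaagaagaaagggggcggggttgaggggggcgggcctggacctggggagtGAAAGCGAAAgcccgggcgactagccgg
PSMD12: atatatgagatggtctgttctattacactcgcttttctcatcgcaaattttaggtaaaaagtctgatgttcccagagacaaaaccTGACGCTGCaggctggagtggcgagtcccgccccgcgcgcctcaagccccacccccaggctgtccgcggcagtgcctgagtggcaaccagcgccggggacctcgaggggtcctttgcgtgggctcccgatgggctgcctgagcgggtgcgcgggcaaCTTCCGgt
PSMG1: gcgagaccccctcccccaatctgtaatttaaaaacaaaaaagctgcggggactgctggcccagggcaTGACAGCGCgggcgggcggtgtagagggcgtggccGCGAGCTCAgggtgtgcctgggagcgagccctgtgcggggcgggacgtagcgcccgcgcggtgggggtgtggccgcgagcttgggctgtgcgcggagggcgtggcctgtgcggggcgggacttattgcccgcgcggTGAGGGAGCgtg

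PSMB10 and PSME2 held the same run, GAAAGCGAAA, which begins 21 and 28 bases before their starts, whereas neither the PSMB9 nor the PSME1 window held the paired half-sites. Windows were found for 38 of the 43 genes (47 windows, since some genes have several starts), and motifs were searched on both strands, each on its own, so that sites of different motifs may share bases. The paired GAAA half-sites were in 10.6% of the 47 windows (PSMA4, PSMB4, PSMB10, PSME2 and PSMG4) and in 3.02% of 35114 windows of all genes. TGANNNNGC was in 59.6% against 35.2%, CGGAAG in 48.9% against 16.5%, and GGGCGG, the GC box, in 66% against 42.6%. CCAAT was in 42.6% against 32%, and TTCNNNGAA, a palindrome, in 12.8% against 6.57%. The proteasome windows held a median of 19 CpG dinucleotides and all windows 11. PSMB10 lay low in that range with 5 CpG, while PSME2 had 15, PSMB9 21, PSME1 25 and PSMG1 28. These counts describe letters in the windows and show no binding and no methylation.

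Treatment moved the proteasome genes modestly, with a median log2 difference above 0 in HCC827-Del and below 0 in HCC827-Del-TM. In HCC827-Del 16 of 43 were called and in HCC827-Del-TM 18, in each line a smaller share than among all genes. In HCC827-Del, 13 of 43 rose and 3 fell, where 24.8% of all genes tested rose and 26.5% fell (51.3% called in either direction). The median log2 difference was 0.08 over the 43 and -0.03 over all genes. In HCC827-Del-TM, 2 rose and 16 fell, against backgrounds of 21.7% higher and 24.1% lower (45.8% in either direction), with a median of -0.15 over the 43 and -0.01 over all genes. The called members of HCC827-Del other than PSMB10 and PSMC3IP stayed within 0.59 of 0 on the log2 scale. In RNA from whole cultures, less RNA per cell and fewer cells of a type cannot be told apart. The p-values, from limma with Benjamini-Hochberg adjustment over all genes, set each difference against the spread between these cultures within the groups. With median scaling of the arrays, 10 members rose and 3 fell in HCC827-Del (3102 genes higher and 1964 lower among all, in place of 2933 and 3126), and 2 rose and 11 fell in HCC827-Del-TM.

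**Figure D1:**
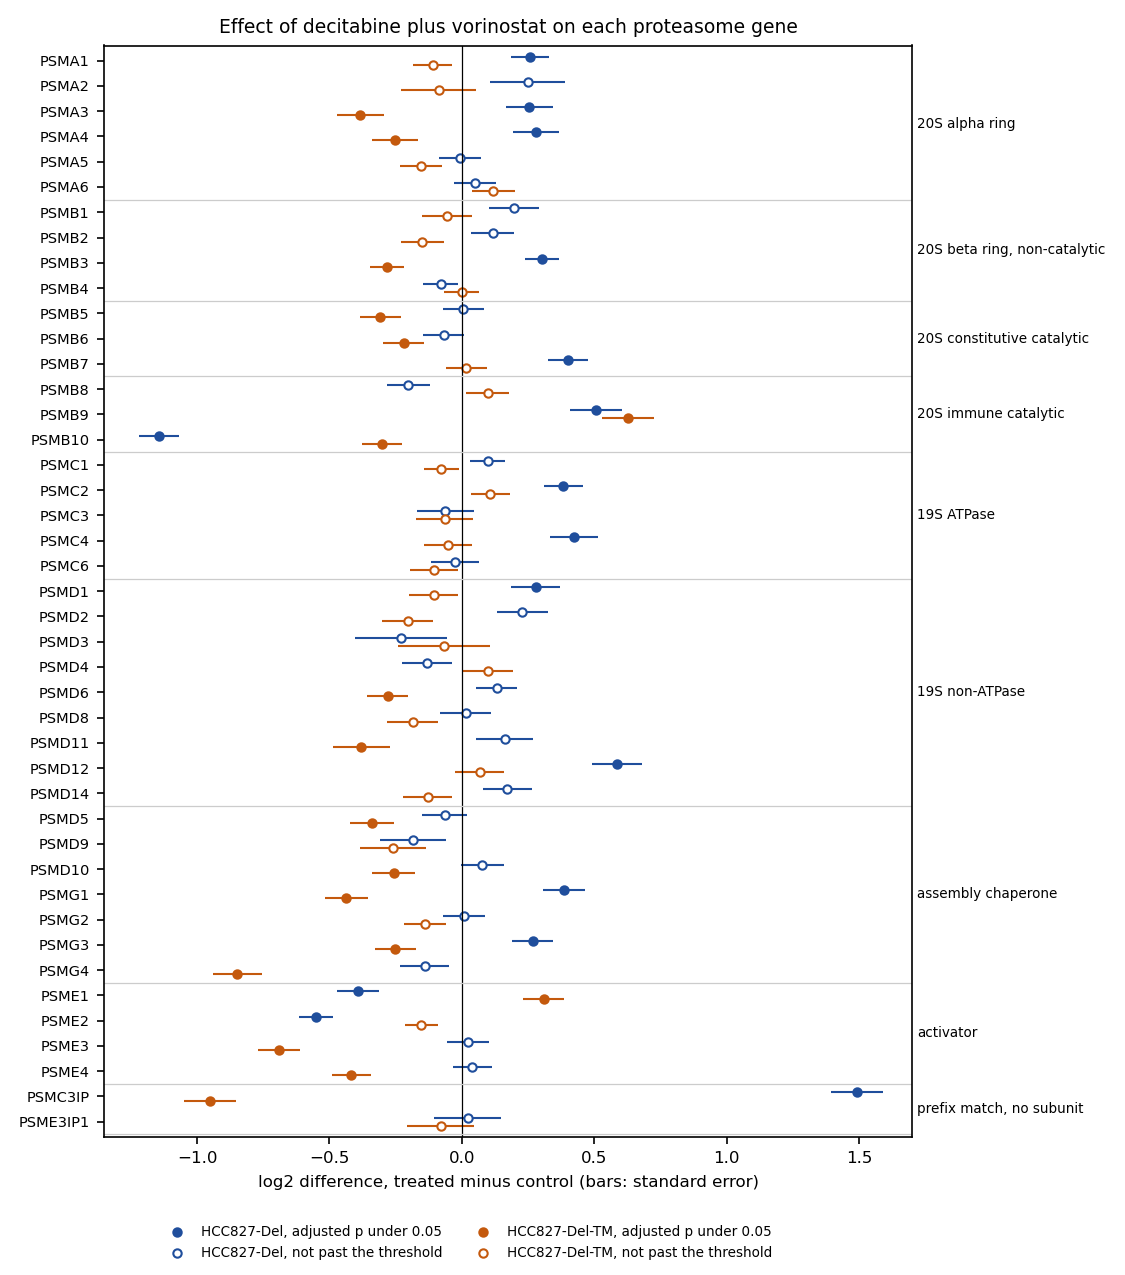
Log2 difference of treated minus control for each of the 43 genes (x axis, bars: standard error) in HCC827-Del (blue) and HCC827-Del-TM (orange), by role; filled points had an adjusted p under 0.05 (limma). In most classes the blue points lie to the right of the orange ones, while PSMB10, PSME1 and PSME2 lie to the left in HCC827-Del.

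Of the 41 genes without PSMC3IP and PSME3IP1, 22 (53.7%) had a log2 difference above 0 in HCC827-Del and below 0 in HCC827-Del-TM, a pattern held by 18.8% of all genes tested. Only 3 of the 41 (7.32%, against 19.9% of all genes) had the opposite pattern: PSMB8, PSMD4 and PSME1. Another 5 were above 0 in both lines (12.2% against 28.4%) and 11 below 0 in both (26.8% against 33%). Counting only calls, 6 genes changed in both lines in opposite directions, 2 changed in both in the same direction (PSMB9 and PSMB10), 7 changed in HCC827-Del only by the threshold, 9 in HCC827-Del-TM only, and 17 in neither. These counts of calls were not made over all genes, so they have no background to be set against. Nor do counts at a threshold by themselves show a difference between the lines. The difference of the treatment effects (HCC827-Del-TM minus HCC827-Del) was therefore tested gene by gene. It was above 0 and called for 3 of 43 members and below 0 and called for 20, where 20.3% of all genes were called above and 22.3% below (42.5% in all). Its median was -0.28 over the members and 0.01 over all genes. With median scaling, 3 were above and 16 below, while the median moved to -0.34 for the members and -0.10 for all genes (1315 genes called above and 2771 below, in place of 2392 and 2632).

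**Figure D2:**
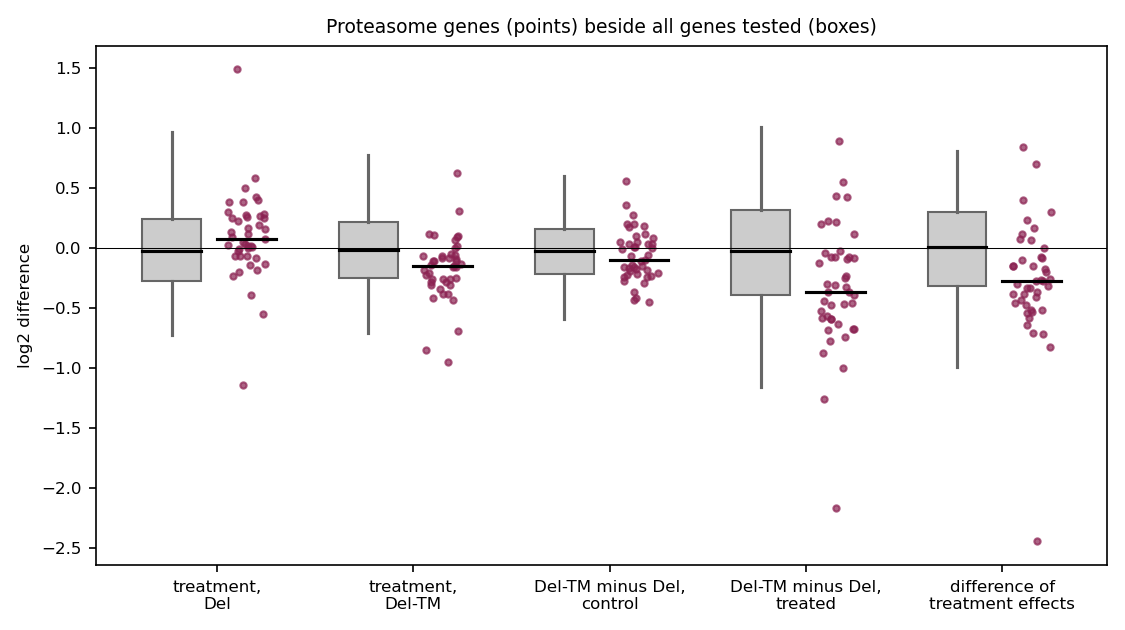
Log2 differences of the 43 genes (points, with their median as a line) beside boxes of all 11808 genes tested (box: quartiles, line: median, whiskers: percentiles 5 to 95) in the 5 comparisons. The members' median is above that of all genes for treatment in HCC827-Del and below it in the other comparisons, most of all between the treated lines.

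Between the control lines, 3 members were higher in HCC827-Del-TM and 9 lower, against backgrounds of 16.2% and 20.3% (36.5% in all), with a median of -0.10 for members and -0.03 for all genes. The 3 higher genes were PSMA2, PSMA6 and PSMC3IP, and the 9 lower ones PSMB3, PSMC2, PSMD2, PSMD4, PSME4, PSMG1, PSMG2, PSMG3 and PSME3IP1. This count rested on single arrays and on the processing. It was 7 in all without replicate 3 of control HCC827-Del or without replicate 1 of control HCC827-Del-TM, 5 higher and 6 lower with cyclic loess, and 6 higher and 15 lower with the authors' values. Calls lost without 1 array included that on PSMC3IP, 0.28 (adjusted p = 0.0411), without any control array other than HCC827-Del-TM replicate 3 (adjusted p = 0.0755 to 0.189). They also included PSMG2, -0.24 (adjusted p = 0.0297), without replicate 2 or 3 of control HCC827-Del or 1 or 2 of control HCC827-Del-TM (0.054 to 0.112). PSMG3, -0.22 (adjusted p = 0.0365), was lost without replicate 1 or 2 of control HCC827-Del or 1 or 3 of control HCC827-Del-TM (0.082 to 0.123). PSME3IP1, -0.37 (adjusted p = 0.0372), was lost without replicate 1 or 3 of either control group (0.0613 to 0.163). Between the treated lines, 5 members were higher in HCC827-Del-TM and 26 lower, against 29.4% and 33.7% (63.1% in all), with a median of -0.36 for members and -0.02 for all genes. The 5 higher genes were PSMB10 (0.89, adjusted p = 1.92e-07), PSME1 (0.55, adjusted p = 2.89e-05), PSME2 (0.44, adjusted p = 3.77e-05), PSMA6 and PSMB8, of which the first 3 fell in treated HCC827-Del. With median scaling, 4 were higher and 27 lower, with medians of -0.39 and -0.18 (2140 genes higher and 4914 lower, in place of 3473 and 3976). The treated-line and control-line values share arrays with the treatment comparisons and are not independent of them.

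**Figure D3:**
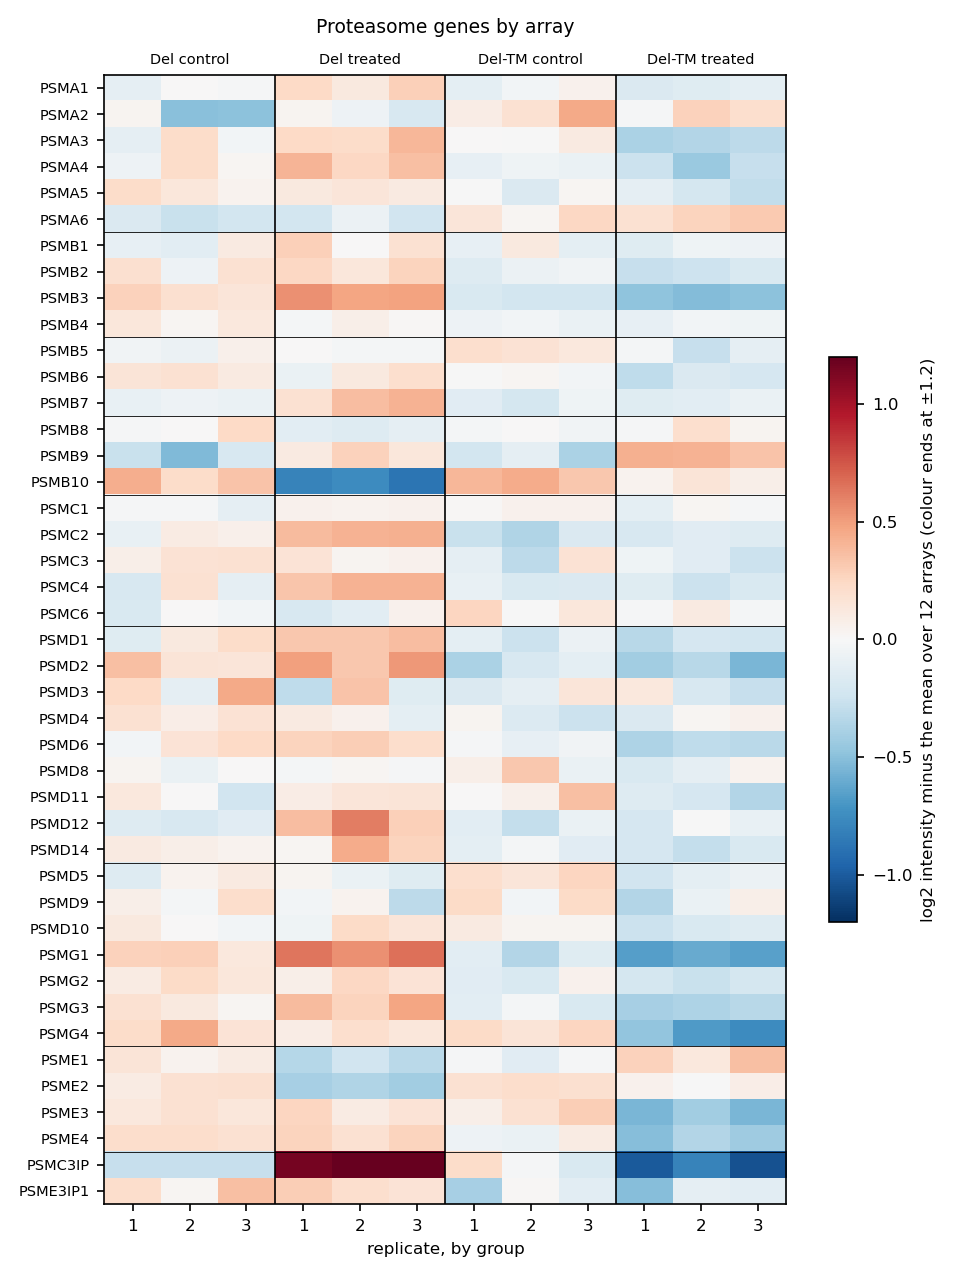
Log2 intensity of each of the 43 genes (listed by role) on each of the 12 arrays, minus the gene's mean over all arrays; red is higher, blue lower. The group mean was highest in treated HCC827-Del for 22 genes and lowest in treated HCC827-Del-TM for 30, while PSMB8, PSMB10, PSMC6, PSME1 and PSME2 were lowest in treated HCC827-Del. These counts were not made over all genes, so they have no background to be set against.

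The immune catalytic subunits did not move together. PSMB10, the immune form of the trypsin-like site, fell by 1.14 (SE 0.0758, adjusted p = 2.84e-08) in treated HCC827-Del, a 2.21-fold drop and the lowest change among the members. Control HCC827-Del arrays read 11.94, 11.72 and 11.85 on the log2 scale and treated ones 10.70, 10.75 and 10.63. In HCC827-Del-TM, control arrays read 11.90, 11.95 and 11.83 and treated ones 11.55, 11.66 and 11.57. The treated arrays lay below the controls without overlap in both lines, with a gap of about a log2 unit in HCC827-Del and a narrow one in HCC827-Del-TM, where the gene fell by 0.30 (SE 0.0758, adjusted p = 0.00485). The effects differed by 0.84 (SE 0.107, adjusted p = 3.29e-05), and the control lines gave 0.05 (adjusted p = 0.622). PSMB10 has 1 kept probe, and no alternative setting ended its calls. In the same treated HCC827-Del arrays, the summed intensity of blood cell markers was higher than in the controls (2081 to 2240 against 1720 to 1803) and that of lung epithelial markers lower (26231 to 27225 against 31293 to 33140), and their part in the fall of PSMB10 was not tested.

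PSMB9, the immune form of the caspase-like site, went the other way on its brightest probe. It read 8.56, 8.29 and 8.63 in control and 8.93, 9.10 and 8.96 in treated HCC827-Del, a rise of 0.51 (SE 0.0991, adjusted p = 0.000747). HCC827-Del-TM gave 8.60, 8.72 and 8.44 in control and 9.25, 9.24 and 9.17 after treatment, a rise of 0.63 (SE 0.0991, adjusted p = 0.000154). Controls and treated arrays did not overlap in either line, and the effects gave a difference of 0.12 (adjusted p = 0.517). The dimmer kept probe of PSMB9, which the annotation assigns to the same transcript, did not follow. It gave -0.27 (adjusted p = 0.0724) in HCC827-Del and 0.16 (adjusted p = 0.284) in HCC827-Del-TM. With the mean over both probes, the rise in HCC827-Del no longer passed (adjusted p = 0.269), while that in HCC827-Del-TM did.

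PSMB8, the immune form of the chymotrypsin-like site, read 10.21, 10.23 and 10.46 in control and 10.10, 10.07 and 10.12 in treated HCC827-Del, and 10.20, 10.23 and 10.18 in control and 10.21, 10.43 and 10.26 in treated cultures of HCC827-Del-TM. The treated HCC827-Del arrays were all below the controls, but the difference of -0.20 (SE 0.0822, adjusted p = 0.0542) missed the threshold, as did 0.10 (adjusted p = 0.361) in HCC827-Del-TM and the difference of effects, 0.30 (adjusted p = 0.0525). Its 4 kept probes did not give 1 answer. The other probes of PSMB8 gave differences of effects of 0.48 (adjusted p = 0.00924), 0.59 (adjusted p = 0.00608) and -0.27 (adjusted p = 0.36), so that 2 of the 4 passed the test over probes. The second of these fell in HCC827-Del by 0.32 (adjusted p = 0.0191) and the first rose in HCC827-Del-TM by 0.30 (adjusted p = 0.0168). Between the treated lines, the 2 annotated to one RefSeq transcript were 0.55 and 0.77 higher in treated HCC827-Del-TM than in treated HCC827-Del (adjusted p = 0.000145 and 1.98e-05). The 2 annotated to the other differed in sign, with 0.20 (the tested probe) and -0.37 (the dimmest, detected on 11 arrays), neither past the test over probes (adjusted p = 0.0502 and 0.0516). In the test over genes, the tested probe passed between the treated lines at 0.20 (adjusted p = 0.0436), but leaving out any single array other than the 3 of control HCC827-Del and treated HCC827-Del-TM replicate 1 ended that call (adjusted p = 0.0515 to 0.182).

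**Figure D4:**
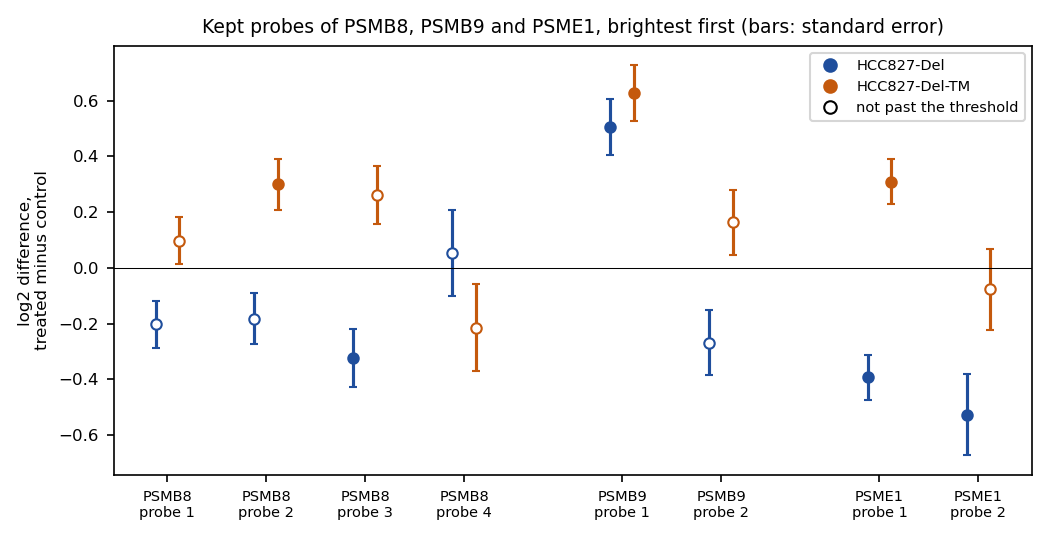
Log2 difference of treated minus control (y axis, bars: standard error) for each kept probe of PSMB8, PSMB9 and PSME1, brightest probe first, in HCC827-Del (blue) and HCC827-Del-TM (orange); filled points passed the test over probes. The brighter PSMB9 probe lies above 0 in both lines and the dimmer one below 0 in HCC827-Del, and the PSME1 probes agree in HCC827-Del only.

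Among the constitutive catalytic subunits, PSMB7 rose in HCC827-Del, and PSMB5 and PSMB6 fell in HCC827-Del-TM. PSMB7, the constitutive partner of PSMB10, read 11.51, 11.54 and 11.52 in control and 11.78, 11.97 and 12.02 in treated HCC827-Del, with no overlap, and rose by 0.40 (SE 0.077, adjusted p = 0.000637). In HCC827-Del-TM it read 11.46, 11.39 and 11.55 in control and 11.45, 11.47 and 11.52 in treated cultures, which overlapped (0.02, adjusted p = 0.881). The effects differed by -0.38 (SE 0.109, adjusted p = 0.0115), a call that median scaling ended (adjusted p = 0.105).

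PSMB5, the constitutive chymotrypsin-like subunit and the main target of proteasome inhibitor drugs, read 11.03, 11.00 and 11.13 in control and 11.08, 11.05 and 11.05 in treated HCC827-Del (0.0054, adjusted p = 0.959). In HCC827-Del-TM it read 11.27, 11.24 and 11.20 in control and 11.05, 10.79 and 10.96 in treated cultures without overlap, and fell by 0.31 (SE 0.0771, adjusted p = 0.00489). The difference of effects, -0.31 (adjusted p = 0.0329), was lost with median scaling and without any single array other than control replicate 3 of either line and treated HCC827-Del-TM replicates 1 and 3 (adjusted p = 0.0508 to 0.0811). PSMB6, the constitutive caspase-like subunit, read 12.46, 12.48 and 12.41 in control and 12.22, 12.42 and 12.50 in treated cultures of HCC827-Del, which overlapped (-0.07, adjusted p = 0.489), and 12.30, 12.32 and 12.27 in control and 12.00, 12.13 and 12.10 in treated cultures of HCC827-Del-TM, which did not. It fell by 0.22 (SE 0.0784, adjusted p = 0.0338) in HCC827-Del-TM, a call lost with median scaling or cyclic loess and without any single array of that line other than treated replicate 2 (adjusted p = 0.054 to 0.11), and gave a difference of effects of -0.15 (adjusted p = 0.295).

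Set against its constitutive partner within each array, and taking the mean of control HCC827-Del as 0, each immune subunit had its own course. These differences of log2 intensities are descriptions without a test. PSMB10 minus PSMB7 was -1.54 ± 0.154 (SD, n = 3) in treated HCC827-Del, 0.11 ± 0.143 in control HCC827-Del-TM and -0.21 ± 0.072 in treated HCC827-Del-TM. PSMB9 minus PSMB6 was 0.57 ± 0.133, 0.25 ± 0.116 and 1.10 ± 0.0916 in the same order. PSMB8 minus PSMB5 was -0.21 ± 0.024, -0.28 ± 0.0306 and 0.12 ± 0.246, with the replicates of treated HCC827-Del-TM spread from -0.08 to 0.39. After treatment the difference was thus lower than in the control of the same line for PSMB10 and PSMB7, and higher for PSMB9 (brightest probe) and PSMB6, in both lines. These are shifts of a difference and do not rank the levels of the probes.

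**Figure D5:**
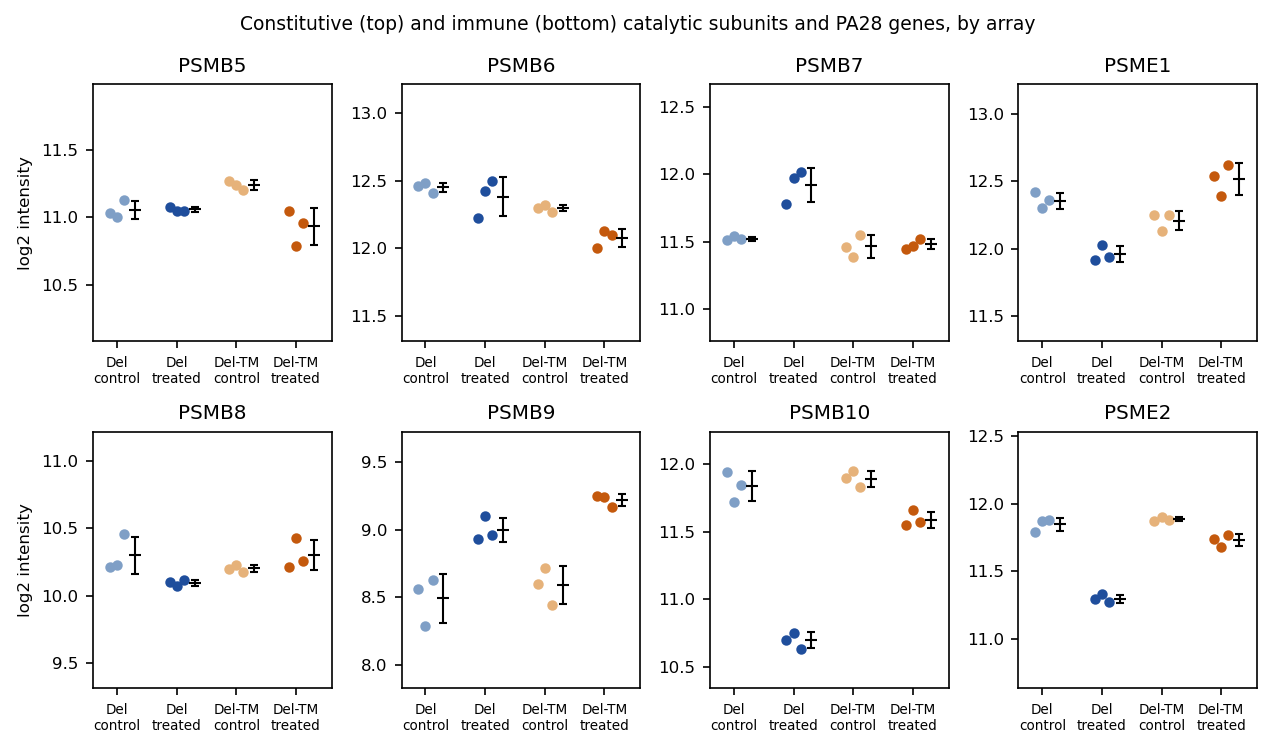
Log2 intensity (y axis) on each array of the constitutive catalytic subunits (top), the immune ones (bottom) and the PA28 genes (right), by group; points are arrays, bars the mean and SD of 3. All panels span the same log2 range, so heights can be compared as changes but not as levels between genes; PSMB10 and PSME2 drop in treated HCC827-Del and PSMB9 rises in both treated groups.

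The PA28 genes PSME1 and PSME2, which lie on chromosome 14 with EMC9 between them, fell together in HCC827-Del. PSME1 read 12.42, 12.30 and 12.36 in control and 11.92, 12.03 and 11.94 in treated HCC827-Del and fell by 0.39 (SE 0.0782, adjusted p = 0.000852). In HCC827-Del-TM it read 12.25, 12.13 and 12.25 in control and 12.54, 12.39 and 12.62 in treated cultures and rose by 0.31 (SE 0.0782, adjusted p = 0.0052). The arrays did not overlap in either line, and the effects differed by 0.70 (SE 0.111, adjusted p = 0.000199). The dimmer kept probe of PSME1, annotated to another transcript and detected on 1 of 3 treated HCC827-Del arrays, gave -0.53 (adjusted p = 0.00884) and -0.08 (adjusted p = 0.71). With the mean over both probes, the rise in HCC827-Del-TM did not pass (adjusted p = 0.318).

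PSME2 read 11.79, 11.87 and 11.88 in control and 11.29, 11.33 and 11.27 in treated HCC827-Del, well apart, and fell by 0.55 (SE 0.0636, adjusted p = 7.29e-06). HCC827-Del-TM gave 11.87, 11.90 and 11.88 in control and 11.74, 11.68 and 11.77 in treated cultures, also without overlap, but the difference of -0.15 (adjusted p = 0.0643) missed the threshold. The effects on PSME2 differed by 0.40 (SE 0.0899, adjusted p = 0.00286). Up to 3 genes on each side of the pair were set beside it, named after their values were seen. EMC9, the gene between both, gave -0.23 (adjusted p = 0.0768) and -0.26 (adjusted p = 0.0546). Others fell in HCC827-Del as the pair did, namely DCAF11 by 0.65 (adjusted p = 2.39e-05), REC8 by 0.55 (adjusted p = 7.8e-06) and RNF31 by 0.20 (adjusted p = 0.0489). For these 3 the difference of effects was also above 0, at 0.85 (adjusted p = 7.48e-05), 0.72 (adjusted p = 3.04e-05) and 0.58 (adjusted p = 0.00105). IRF9 gave -0.16 (adjusted p = 0.128) in HCC827-Del with a difference of effects of 0.36 (adjusted p = 0.0247), and PCK2 gave -0.21 (adjusted p = 0.0555) and 0.09 (adjusted p = 0.581).

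The other activators, PSME3 and PSME4, moved in HCC827-Del-TM only by the threshold, and for both the difference between lines was itself called. PSME3 encodes the nuclear PA28 gamma, which acts without ubiquitin. It read 7.80, 7.85 and 7.81 in control and 7.93, 7.77 and 7.83 in treated cultures of HCC827-Del, which overlapped (0.02, adjusted p = 0.822), and 7.74, 7.85 and 7.97 in control and 7.12, 7.25 and 7.12 in treated cultures of HCC827-Del-TM, where it fell by 0.69 (SE 0.0786, adjusted p = 8.25e-06). Both of its kept probes fell there. The effects differed by -0.71 (SE 0.111, adjusted p = 0.000182). PSME4, the PA200 activator, fell by 0.42 (adjusted p = 0.000367) in HCC827-Del-TM and gave 0.04 (adjusted p = 0.687) in HCC827-Del, with a difference of effects of -0.46 (adjusted p = 0.003). PSME4 was also lower in control HCC827-Del-TM than in control HCC827-Del, at -0.22 (adjusted p = 0.0338), a call lost without any single control array other than HCC827-Del-TM replicate 3 (adjusted p = 0.0609 to 0.112).

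Among the 6 alpha ring genes, 3 rose in HCC827-Del, where 24.8% of all genes rose. They were PSMA1 by 0.26 (adjusted p = 0.0097), PSMA3 by 0.25 (adjusted p = 0.0278) and PSMA4 by 0.28 (adjusted p = 0.0144). PSMA3 and PSMA4 fell in HCC827-Del-TM, by 0.38 (adjusted p = 0.00295) and 0.25 (adjusted p = 0.0272). The effects differed for the same 3 genes, all below 0, where 22.3% of all genes were called below 0. The differences were -0.64 (adjusted p = 0.00111) for PSMA3, -0.53 (adjusted p = 0.00306) for PSMA4 and -0.37 (adjusted p = 0.0115) for PSMA1. The second kept probes of PSMA3 and PSMA4 gave -0.68 and -0.64 for that difference. Some of these treatment calls were lost without 1 array. For PSMA3 in HCC827-Del it was without control replicate 1 or 3 or treated replicate 3 (adjusted p = 0.091 to 0.12), and for PSMA4 without control or treated replicate 1 (0.0526 to 0.0667). In HCC827-Del-TM, PSMA4 lost its call without control replicate 2 or 3 or treated replicate 2 (0.0565 to 0.116). Median scaling ended the calls of PSMA1, PSMA3 and PSMA4 in HCC827-Del, of PSMA4 in HCC827-Del-TM and of PSMA1 for the difference of effects.

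PSMA2 and PSMA6 were higher in control HCC827-Del-TM than in control HCC827-Del, PSMA6 also between the treated lines, and neither passed for treatment. PSMA2 read 6.74, 6.21 and 6.22 in control HCC827-Del, 6.74, 6.65 and 6.52 after treatment, 6.80, 6.89 and 7.17 in control HCC827-Del-TM and 6.70, 6.99 and 6.91 after treatment. It was 0.56 (SE 0.141, adjusted p = 0.00668) higher in control HCC827-Del-TM, where every array exceeded those of control HCC827-Del, but the treated groups overlapped (between the treated lines 0.23, adjusted p = 0.175), and its treatment effects did not pass (0.25, adjusted p = 0.16 and -0.09, adjusted p = 0.645). PSMA6 read 12.88, 12.78 and 12.83 in control and 12.83, 12.98 and 12.82 in treated HCC827-Del, and 13.19, 13.07 and 13.30 in control and 13.23, 13.32 and 13.36 in treated HCC827-Del-TM. All 6 arrays of HCC827-Del-TM were above all 6 of HCC827-Del, by 0.36 (SE 0.08, adjusted p = 0.00329) between the controls and 0.43 (SE 0.08, adjusted p = 0.000348) between the treated groups. The second probe of PSMA6 gave 0.52 and 0.60. PSMA5 gave -0.0073 (adjusted p = 0.946) and -0.16 (adjusted p = 0.128) for treatment and was lower in treated HCC827-Del-TM than in treated HCC827-Del, at -0.33 (adjusted p = 0.00256).

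Of the 4 non-catalytic beta ring genes, PSMB3 changed and PSMB1, PSMB2 and PSMB4 did not pass the test in either line. PSMB3 read 12.58, 12.49 and 12.45 in control and 12.85, 12.78 and 12.79 in treated HCC827-Del, and 12.12, 12.08 and 12.08 in control and 11.82, 11.78 and 11.81 in treated cultures of HCC827-Del-TM. The 4 groups formed separate bands, with treated HCC827-Del highest and treated HCC827-Del-TM lowest. PSMB3 rose by 0.30 (SE 0.0648, adjusted p = 0.00146) in HCC827-Del and fell by 0.28 (SE 0.0648, adjusted p = 0.00265) in HCC827-Del-TM, and the effects differed by -0.59 (SE 0.0917, adjusted p = 0.000187). It was -0.41 (adjusted p = 0.00021) between the control lines, and in treated HCC827-Del-TM its signal was 2-fold lower than in treated HCC827-Del (adjusted p = 1.24e-08). Median scaling ended the rise in HCC827-Del (adjusted p = 0.0549). Treatment differences of PSMB1, PSMB2 and PSMB4 ran from -0.08 to 0.20 in HCC827-Del and from -0.15 to -0.00085 in HCC827-Del-TM. Between the treated lines, PSMB2 was lower in HCC827-Del-TM at -0.46 (adjusted p = 0.000222) and PSMB1 at -0.25 (adjusted p = 0.0359), the last lost without any single treated array other than HCC827-Del replicate 2 (adjusted p = 0.0546 to 0.145).

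The 5 ATPases of the 19S base, which unfold substrates, included 2 that rose in HCC827-Del, where 24.8% of all genes rose. They were PSMC4 by 0.42 (adjusted p = 0.00146) and PSMC2 by 0.38 (adjusted p = 0.000634). None of the 5 passed in HCC827-Del-TM, where 45.8% of all genes were called in either direction. There the 5 genes gave log2 differences from -0.11 to 0.11. PSMC1, PSMC3 and PSMC6 passed in neither line, with 0.10, -0.06 and -0.03 in HCC827-Del. The effects differed for PSMC4, at -0.47 (adjusted p = 0.0088), and for PSMC2, at -0.28 (adjusted p = 0.0463). The call on PSMC2 was lost without any single array other than control replicate 2 of either line (adjusted p = 0.0544 to 0.111). The other kept probes of PSMC4 gave -0.25 and -0.07 for the difference, and the mean over its 3 probes did not pass (adjusted p = 0.179). PSMC2 was lower in HCC827-Del-TM between controls as well, at -0.29 (adjusted p = 0.00679).

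Among the 9 non-ATPase genes of the 19S cap, PSMD12 and PSMD1 rose in HCC827-Del, and PSMD11 and PSMD6 fell in HCC827-Del-TM. These counts are near the background, since 24.8% of all genes rose in HCC827-Del and 24.1% fell in HCC827-Del-TM. PSMD12, a subunit of the lid, read 9.05, 9.02 and 9.07 in control and 9.58, 9.82 and 9.49 in treated HCC827-Del, without overlap, and rose by 0.59 (SE 0.0932, adjusted p = 0.000138), the highest change among the 41. In HCC827-Del-TM it read 9.08, 8.92 and 9.13 in control and 9.01, 9.20 and 9.12 in treated cultures, which overlapped (0.07, adjusted p = 0.591). The effects differed by -0.52 (SE 0.132, adjusted p = 0.00613). Of its 4 probes, 1 was detected on all 12 arrays and 3 on none. PSMD1, a scaffold of the base, rose by 0.28 (adjusted p = 0.0208), a call lost without control replicate 1 or treated replicate 3 (adjusted p = 0.06 to 0.103).

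PSMD11 and PSMD6, both lid subunits, fell by 0.38 (adjusted p = 0.0103) and 0.28 (adjusted p = 0.00908) in HCC827-Del-TM. The call on PSMD11 was lost without control replicate 3 (adjusted p = 0.0528), and that on PSMD6 with median scaling or cyclic loess. PSMD2, a base subunit that docks ubiquitin carriers, read 9.87, 9.66 and 9.65 in control and 10.00, 9.83 and 10.03 in treated HCC827-Del, and 9.13, 9.32 and 9.39 in control and 9.09, 9.18 and 8.96 in treated cultures of HCC827-Del-TM. All 6 arrays of HCC827-Del-TM were below all 6 of HCC827-Del. The treatment effects of PSMD2 did not pass in either line (0.23, adjusted p = 0.0641 and -0.20, adjusted p = 0.101), but it was -0.45 (adjusted p = 0.0026) between the controls and -0.88 (SE 0.0965, adjusted p = 2.63e-06) between the treated groups.

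The effects differed between the lines for 5 of these 9 genes, all below 0, where 22.3% of all genes were called below 0. The differences were -0.54 (adjusted p = 0.0108) for PSMD11, -0.52 (adjusted p = 0.00613) for PSMD12, -0.43 (adjusted p = 0.0207) for PSMD2, -0.41 (adjusted p = 0.008) for PSMD6 and -0.39 (adjusted p = 0.0279) for PSMD1. The call on PSMD1 was lost without control replicate 1 of either line, treated HCC827-Del replicate 3, control HCC827-Del-TM replicate 3 or treated HCC827-Del-TM replicate 1 (adjusted p = 0.0565 to 0.0649). That on PSMD2 was lost without replicate 3 of either treated group or of control HCC827-Del-TM (adjusted p = 0.0511 to 0.0533). PSMD14, the lid's deubiquitinase, gave 0.17 (adjusted p = 0.14) and -0.13 (adjusted p = 0.278) and was lower in treated HCC827-Del-TM than in treated HCC827-Del, at -0.47 (adjusted p = 0.000558). PSMD4, a ubiquitin receptor, was lower in control HCC827-Del-TM, at -0.28 (adjusted p = 0.0345), a call lost without replicate 1 or 3 of control HCC827-Del or 2 or 3 of control HCC827-Del-TM (adjusted p = 0.0895 to 0.131). PSMD3 and PSMD8 passed in no comparison.

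Of the 7 assembly chaperones, 5 fell and 0 rose in HCC827-Del-TM, where 24.1% of all genes fell, and 2 rose and 0 fell in HCC827-Del, where 24.8% rose. PSMG1, which with PSMG2 builds the alpha ring, read 9.48, 9.49 and 9.33 in control and 9.84, 9.75 and 9.86 in treated HCC827-Del, and 9.08, 8.85 and 9.06 in control and 8.54, 8.60 and 8.55 in treated cultures of HCC827-Del-TM. The 4 groups did not overlap. PSMG1 rose by 0.39 (SE 0.0797, adjusted p = 0.00109) in HCC827-Del and fell by 0.44 (SE 0.0797, adjusted p = 0.000504) in HCC827-Del-TM, and the effects differed by -0.82 (SE 0.113, adjusted p = 6.04e-05). It was lower in HCC827-Del-TM in both comparisons of the lines, at -0.43 (adjusted p = 0.000816) for controls and -1.25 (adjusted p = 1.01e-08) for treated cultures, the latter 2.38-fold. Its second probe gave 0.38, -0.33 and -0.71 for both treatment effects and their difference.

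PSMG4, which pairs with PSMG3 in the same pathway, read 9.44, 9.67 and 9.38 in control and 9.31, 9.42 and 9.35 in treated cultures of HCC827-Del, overlapping (-0.14, adjusted p = 0.229), and 9.45, 9.37 and 9.47 in control and 8.74, 8.54 and 8.46 in treated cultures of HCC827-Del-TM, where it fell by 0.85 (SE 0.0924, adjusted p = 5.4e-06), the lowest change among the 41 in that line. The effects differed by -0.71 (SE 0.131, adjusted p = 0.000683). PSMG3 rose by 0.27 (adjusted p = 0.0104) in HCC827-Del and fell by 0.25 (adjusted p = 0.016) in HCC827-Del-TM, with a difference of -0.52 (adjusted p = 0.00178). Each of its treatment calls was lost without 1 array, treated replicate 3 in HCC827-Del (adjusted p = 0.0519) and control replicate 2 in HCC827-Del-TM (adjusted p = 0.0674). PSMG2 gave 0.0073 (adjusted p = 0.947) and -0.14 (adjusted p = 0.172).

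The chaperones of the 19S base, PSMD5, PSMD9 and PSMD10, gave -0.06, -0.19 and 0.08 in HCC827-Del, none of them called. In HCC827-Del-TM, PSMD5 fell by 0.34 (adjusted p = 0.0046) and PSMD10, also known as gankyrin, by 0.26 (adjusted p = 0.0193), while PSMD9 gave -0.26 (adjusted p = 0.103). The call on PSMD10 was lost without control or treated replicate 1 (adjusted p = 0.0651 for each) and with the mean over its 3 probes. Its difference of effects, -0.33 (adjusted p = 0.0316), was lost with median scaling and without replicate 2 or 3 of either HCC827-Del group, replicate 1 of either HCC827-Del-TM group, or treated HCC827-Del-TM replicate 2 (adjusted p = 0.0509 to 0.0824).

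PSMC3IP, a meiotic recombination factor named for its interaction with PSMC3, changed most of all 43, although it is not part of the proteasome. It read 6.68, 6.68 and 6.68 in control and 8.10, 8.21 and 8.21 in treated HCC827-Del, 7.17, 6.94 and 6.77 in control and 5.95, 6.15 and 5.91 in treated HCC827-Del-TM. It rose by 1.49 (SE 0.0981, adjusted p = 2.54e-08) in HCC827-Del, which is 2.81-fold, and fell by 0.95 (SE 0.0981, adjusted p = 3.2e-06) in HCC827-Del-TM, which is 1.93-fold. No treated array overlapped its controls in either line, and the effects differed by -2.44 (SE 0.139, adjusted p = 1.94e-08). The other 2 kept probes gave 1.26 and 1.07 in HCC827-Del. In HCC827-Del-TM the first of them was not detected on any treated array, and the second gave -0.68. PSME3IP1, named for its interaction with PSME3, gave 0.02 (adjusted p = 0.902) and -0.08 (adjusted p = 0.643). TUBG1, a gamma tubulin gene near PSMC3IP on chromosome 17, rose by 0.39 (adjusted p = 0.000352) in HCC827-Del and fell by 1.07 (adjusted p = 3.91e-08) in HCC827-Del-TM, whereas the adjacent genes MLX and RETREG3 gave -0.84 and -0.48 in HCC827-Del and -0.23 and 0.03 in HCC827-Del-TM. COASY and TUBG2, further out, gave 0.0045 and -0.03 in HCC827-Del and -0.25 and 0.63 in HCC827-Del-TM. These 5 neighbours were named after their values were seen.

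TAP1, part of the peptide transporter that feeds MHC class I, lies between PSMB8 and PSMB9 on chromosome 6. TAP1 rose by 0.46 (adjusted p = 0.000142) in HCC827-Del and by 0.48 (adjusted p = 0.000125) in HCC827-Del-TM, whereas TAP2, on the other side of PSMB8, gave 0.06 (adjusted p = 0.646) and fell by 0.47 (adjusted p = 0.00106). HLA-DMB, beyond PSMB9, fell by 0.37 (adjusted p = 0.00179) and rose by 0.32 (adjusted p = 0.00591), and HLA-DOB, beyond TAP2, gave 0.22 (adjusted p = 0.291) and -0.12 (adjusted p = 0.598). HLA-DMA, the gene after HLA-DMB, fell by 0.24 (adjusted p = 0.0144) and rose by 0.79 (adjusted p = 1.22e-06). BRD2, the next, gave -0.04 (adjusted p = 0.744) and -0.15 (adjusted p = 0.195). Near PSMB10 on chromosome 16, SLC12A4, an ion transporter gene, rose by 0.75 (adjusted p = 8.77e-06) and 1.30 (adjusted p = 5.99e-08), opposite to PSMB10, and PSKH1, on its other side, gave -0.18 (adjusted p = 0.358) and 0.33 (adjusted p = 0.109). These neighbours, too, were named after their values were seen.

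Genes of peptide transport and MHC class I included more rises than falls after treatment. Of 12 measured from a list of 14, 6 rose and 1 fell in HCC827-Del (median 0.27), where 24.8% of all genes rose and 26.5% fell. In HCC827-Del-TM, 8 rose and 1 fell (median 0.47), where 21.7% of all genes rose and 24.1% fell. The class I genes HLA-F, HLA-B and HLA-E rose in HCC827-Del by 0.73, 0.77 and 0.53 and in HCC827-Del-TM by 0.85, 0.79 and 0.73. HLA-G rose by 1.06 and 0.28. Probes of these near-identical genes can bind each other's transcripts, so the gene behind each signal is uncertain. TAPBP, which loads peptides, fell by 0.71 (adjusted p = 7.13e-06) in HCC827-Del and gave 0.04 (adjusted p = 0.703) in HCC827-Del-TM, and CALR, a chaperone of class I assembly, gave -0.05 (adjusted p = 0.596) and 0.47 (adjusted p = 0.000173). PSMB10, PSME1 and PSME2 thus fell in HCC827-Del while HLA-B, HLA-F and TAP1 rose on the same arrays.

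Of 15 interferon and NF-kappaB regulators, 12 were tested, with 1 higher and 3 lower in HCC827-Del and 2 higher and 3 lower in HCC827-Del-TM, where all genes gave 24.8% higher and 26.5% lower, and 21.7% higher and 24.1% lower. IRF1, a factor that activates the immune subunit genes, gave 0.25 (adjusted p = 0.0399) and -0.09 (adjusted p = 0.492). RELA and NFKB1, subunits of NF-kappaB, fell by 0.30 and 0.35 in HCC827-Del. In HCC827-Del-TM, NFKB1 fell by 0.51 (adjusted p = 0.000104), RELA gave 0.20 (adjusted p = 0.0644), and NLRC5, the class I transactivator that also acts on PSMB9, fell by 0.42 (adjusted p = 0.0236). STAT3 rose by 0.55 (adjusted p = 2.79e-05) there. Between the control lines, 6 of the 12 were higher in HCC827-Del-TM and 1 lower, against 16.2% and 20.3% of all genes. The interferon gamma receptor genes IFNGR2 and IFNGR1 were 1.02 and 0.74 higher there (adjusted p = 1.54e-07 and 4.71e-06), while PSMB8, PSMB9 and PSMB10 gave -0.10, 0.10 and 0.05, none of them called.

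Partners of the proteasome outside the PSM prefixes gave 8 rises and 5 falls of 22 tested (27 listed) in HCC827-Del and 4 rises and 7 falls in HCC827-Del-TM, with medians of 0.0025 and -0.02. Among all genes, 24.8% rose and 26.5% fell in HCC827-Del, and 21.7% rose and 24.1% fell in HCC827-Del-TM. In either direction 51.3% and 45.8% were called, and only the counts of both directions together are near the background. NFE2L1, the transcription factor that raises subunit genes when proteasome activity is short, rose by 0.22 (adjusted p = 0.0203) in HCC827-Del and by 0.61 (adjusted p = 9.41e-06) in HCC827-Del-TM. NFE2L2, its relative and the oxidative stress regulator, gave 0.03 (adjusted p = 0.739) and 0.59 (adjusted p = 2.52e-05). ZFAND2A, a stress-induced proteasome partner, rose by 0.83 (adjusted p = 1.65e-06) and 0.36 (adjusted p = 0.00251). UBQLN2, a shuttle for ubiquitinated proteins, fell by 0.35 (adjusted p = 0.00145) in HCC827-Del and rose by 0.38 (adjusted p = 0.00108) in HCC827-Del-TM, with a difference of 0.73 (adjusted p = 0.000111). PAAF1, a regulator of 19S assembly, gave -0.12 (adjusted p = 0.28) and fell by 0.40 (adjusted p = 0.00163), and UCHL5, a deubiquitinase of the cap, rose by 0.28 (adjusted p = 0.0187) in HCC827-Del and gave -0.18 (adjusted p = 0.117) in HCC827-Del-TM.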

How the data were processed

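RNA from 12 cultures was labelled and hybridised to Illumina bead arrays with 1 array per sample, per the labels' protocols. The authors deposited probe signal intensities that are neither background-subtracted nor normalized between arrays, and a detection p-value for each probe on each array, per the file headers. They also deposited a table of processed values. Its log2 scale and its quantile normalization by the authors were inferred from the deposited values themselves (lowest value 6.25). They correlated at r = 0.981 on each array with the background-corrected, quantile-normalized log2 values used here. With both sets quantile-normalized from the same signals, an equal r on every array follows from the normalization and checks no single array. The sources used here do not say how background was treated in the authors' table. Over the 5 comparisons, 19, 20, 21, 33 and 27 members were called with those values and 19, 21, 20, 33 and 27 without background correction, so these 2 alternatives gave nearly the same counts. Samples were assigned to groups from the labels.

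From the signal intensities, background was corrected by normexp, with the detection p-values in place of control probes and an offset of 16, in limma 3.58.1 (R 4.3.3). Arrays were then quantile-normalized and put on a log2 scale. Probes detected (p under 0.01) on at least 3 arrays were kept, 19833 of 47323. Of all probes, 30113 had 1 gene symbol, 8 several and 17202 none, and kept probes with 1 symbol gave 11808 genes, each represented by its probe with the highest mean. A model with 4 group means was fitted to all genes and 5 contrasts were tested with limma's moderated test, with Benjamini-Hochberg adjustment over all genes and a threshold of 0.05. Tests of single probes were adjusted over 15667 probes. The median standard error of a log2 difference between groups was 0.0955. The number of arrays limits the precision, and p-values set a difference against the spread between cultures within the groups.

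Every gene of the symbol rule could be named. The catalytic subunits, PSME1, PSME2 and the 3 called genes with the highest and lowest difference in each comparison were given array by array. Outside the module, EGFR, up to 6 called genes of each list and the interferon regulators could be named. The neighbours of PSMB8, PSMB9, PSMB10, PSME1, PSME2 and PSMC3IP were added after their values were seen. The members and lists were chosen with earlier results of these data known. Likeness to PSMB9 across arrays, which had been planned, is not given, because the arrays fall into 4 separate groups. Promoter windows and gene order came from RefSeq tables on GRCh38.p14. The fits were tested on simulated data. Alternatives covered the background correction, the normalization, the detection filter, the choice of probe, the authors' values, the model, each array left out in turn, and blocks by replicate number.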

Additional observations from a re-analysis of the deposited data

Results flagged for a closer look

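For 23 of 43 genes the treatment effect differed between the lines by a test of the difference itself (HCC827-Del-TM minus HCC827-Del, limma, adjusted p under 0.05). Among all genes tested, 42.5% were called for this difference, 20.3% above 0 and 22.3% below. PSMB10, PSME1 and PSME2 had differences above 0, at 0.84, 0.70 and 0.40. The other 20 were below 0. PSMC3IP, which is no subunit, had -2.44. Among assembly chaperones the values were -0.82 for PSMG1, -0.71 for PSMG4, -0.52 for PSMG3 and -0.33 for PSMD10. The other activators had -0.71 (PSME3) and -0.46 (PSME4). In the core particle they were -0.64 for PSMA3, -0.59 for PSMB3, -0.53 for PSMA4, -0.38 for PSMB7, -0.37 for PSMA1 and -0.31 for PSMB5. In the 19S cap they were -0.54 for PSMD11, -0.52 for PSMD12, -0.47 for PSMC4, -0.43 for PSMD2, -0.41 for PSMD6, -0.39 for PSMD1 and -0.28 for PSMC2. The 23 differences share the same 12 arrays and are not independent of each other.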

How the results depend on the processing

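Of 100 calls on members, 70 passed under every alternative run and 30 failed under at least 1, 22 of them when 1 array was left out, and 0 reversed. The counts of members called stayed within 1.5 times of those reported (16 and 18 for treatment in HCC827-Del and HCC827-Del-TM, 31 between treated lines and 23 for the difference of effects), except between the control lines, where 12 became 7 with median scaling, 20 without background correction and 21 with the authors' values. The cause was not tested. Leaving out 1 array gave 13 to 18, 15 to 18, 29 to 32 and 18 to 22 in the same order, and 7 to 13 between the control lines, with 7 without replicate 3 of control HCC827-Del or replicate 1 of control HCC827-Del-TM. Fitting only the groups compared does not apply to the difference of effects. With the replicate number as a block, the counts were 16, 18, 29 and 22, and 11 between control lines. The numbers did not pair the samples, since deviations of same-numbered arrays correlated at -0.0316 to 0.052 and 5 of 12 arrays correlated best with their own number. With 3 arrays a group, precision is limited, and a value that missed the threshold is not shown to be unchanged. Single probes of PSMB8, PSMB9 and PSME1 disagreed.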
